A study of Mus musculus with 8 samples.

Results

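The core of the RAS-RAF-MEK-ERK cascade was followed through 7 genes, namely the RAS GTPases Hras and Nras, the RAF kinases Araf and Braf, the MEK kinases Map2k1 and Map2k2, and the ERK kinase Mapk3. They were taken by symbol from the 34478 genes of a normalized count table, as components of the cascade, and all 7 were found there. The table held mRNA sequencing of 4 murine pancreatic cancer cell lines, named #1, #3, #5 and #10, each as one library under the solvent DMSO and one under trametinib, a MEK inhibitor, giving 8 libraries. All 8 libraries shared Ptf1awt/Cre and Trp53loxP/loxP in their genotype, in which Cre driven from the Ptf1a locus removes Trp53 in the pancreas. The group labelled MEKi had received trametinib for 48 h at the IC50 of the respective line, so that dose differed between lines, while the labels gave no time for DMSO. Ages of the source mice were not given in the labels, and each line was represented by a single library per group. The cells were derived from pieces of tumour and grown in culture. Test results therefore describe the spread between 4 lines.

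In this cascade, membrane-bound RAS in its GTP-loaded state recruits RAF kinases, RAF phosphorylates MEK, and MEK phosphorylates ERK, which enters the nucleus and acts on transcription factors. Trametinib binds MEK and keeps it from being activated and from phosphorylating ERK. The cascade is active in most pancreatic ductal adenocarcinomas, and ERK-induced phosphatases and Sprouty proteins feed back on the upstream tiers. The comparison addressed whether blocking MEK shifts the mRNA of the cascade's own components.

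Promoter windows of these genes are shown first, as sequence only, and their regulatory activity was not tested. RefSeq promoter sequences (GRCm38.p6) were matched for 6 of the 7 genes, Mapk3 being the unmatched one. The first 250 bases of each were searched on both strands for 6 short motifs. Not every window lay before the outermost RefSeq 5′ end of its gene. The motifs were GGGCGG (the GC box bound by SP factors), CCGGAAG (the core bound by ETS factors, which ERK phosphorylates), TGACGTCA (the cAMP response element), TGANTCA (the AP-1 site), CCAAT (the NF-Y box) and CACGTG (the E-box bound by MYC). In the sequences below capitals mark every motif match on either strand, and no matches of different motifs overlapped in any of the 6 windows. Map2k1 and Map2k2, which encode the drug's targets, and Araf are given over 250 bases at chr9:64253606-64253855 (minus strand), chr10:81105665-81105914 (plus strand) and chrX:20848293-20848542 (plus strand).
Map2k1: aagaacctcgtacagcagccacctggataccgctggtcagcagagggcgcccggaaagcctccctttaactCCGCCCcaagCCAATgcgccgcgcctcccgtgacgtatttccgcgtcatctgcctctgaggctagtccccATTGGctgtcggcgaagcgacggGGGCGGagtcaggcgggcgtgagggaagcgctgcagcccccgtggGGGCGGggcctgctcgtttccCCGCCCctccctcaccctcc
Map2k2: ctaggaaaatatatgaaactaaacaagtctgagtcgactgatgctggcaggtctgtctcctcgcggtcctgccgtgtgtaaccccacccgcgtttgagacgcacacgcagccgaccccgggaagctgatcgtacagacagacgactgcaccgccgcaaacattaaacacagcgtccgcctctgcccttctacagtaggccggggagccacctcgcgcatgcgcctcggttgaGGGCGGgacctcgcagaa
Araf: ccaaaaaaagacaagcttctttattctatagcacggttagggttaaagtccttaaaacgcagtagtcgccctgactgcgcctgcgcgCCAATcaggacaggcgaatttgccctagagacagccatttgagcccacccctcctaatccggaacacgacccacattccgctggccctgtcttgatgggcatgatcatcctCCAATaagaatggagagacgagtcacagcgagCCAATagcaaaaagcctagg

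The Map2k1 window held 4 GC boxes and 2 CCAAT boxes, and its 26 bases nearest the gene body were annotated as exon. The Map2k2 window held 1 GC box and no other motif of the set. The Araf window lay inside the gene as annotated, far downstream of its outermost RefSeq 5′ end, overlapped no annotated exon and held 3 CCAAT boxes. The Braf window contained the outermost RefSeq 5′ end of the gene (chr6:39725658), and most of it lay inside the gene as annotated there. For Braf only the stretch with both of its cAMP response elements is given, at chr6:39725535-39725564 on the minus strand. This stretch lay in the part inside the RefSeq gene.
Braf: gaTGACGTCAcgcacccaggTGACGTCAcg

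Across 32851 promoters of the same length, GGGCGG was present in 32.7%, CCAAT in 33.8%, CCGGAAG in 6.91%, TGANTCA in 6.75%, CACGTG in 6.02% and TGACGTCA in 1.55%. Of the 6 matched members, 5 held GGGCGG, 3 held CCAAT, and 1 each held TGACGTCA (Braf) and CACGTG (Nras). Neither CCGGAAG nor TGANTCA occurred in any of the 6 windows. These matches describe letters in a window only.

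All 7 genes differed by modest amounts between trametinib and DMSO. Hras, Nras, Map2k1 and Map2k2 were lower under the drug, and Araf, Braf and Mapk3 were higher. On the log2 scale the largest rise was that of Braf (0.67), from a mean of 1269 ± 300.2 to 2026 ± 553 normalized counts (SD, n = 4 lines). The larger falls were those of Hras (-0.55), from 2029 ± 370.4 to 1414 ± 403, and Map2k1 (-0.51), whose order turned without line #3 or line #5. Each gene passed the limma test with cell line as a block (7 of 7 at an adjusted p under 0.05), in a data set where 53.0% of the 15888 tested genes passed. For higher genes the background was 27.3% against 3 of 7 members, and for lower genes 25.6% against 4 of 7. The direction was the same in 4 of 4 lines for every member, compared with 65.6% of the tested genes. For none of the 7 did the MEKi libraries lie wholly outside the range of the DMSO libraries, while 31.3% of tested genes were separated in that way. The members were chosen with earlier results of these data known, so these shares do not test them as a set.

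**Figure D1:**
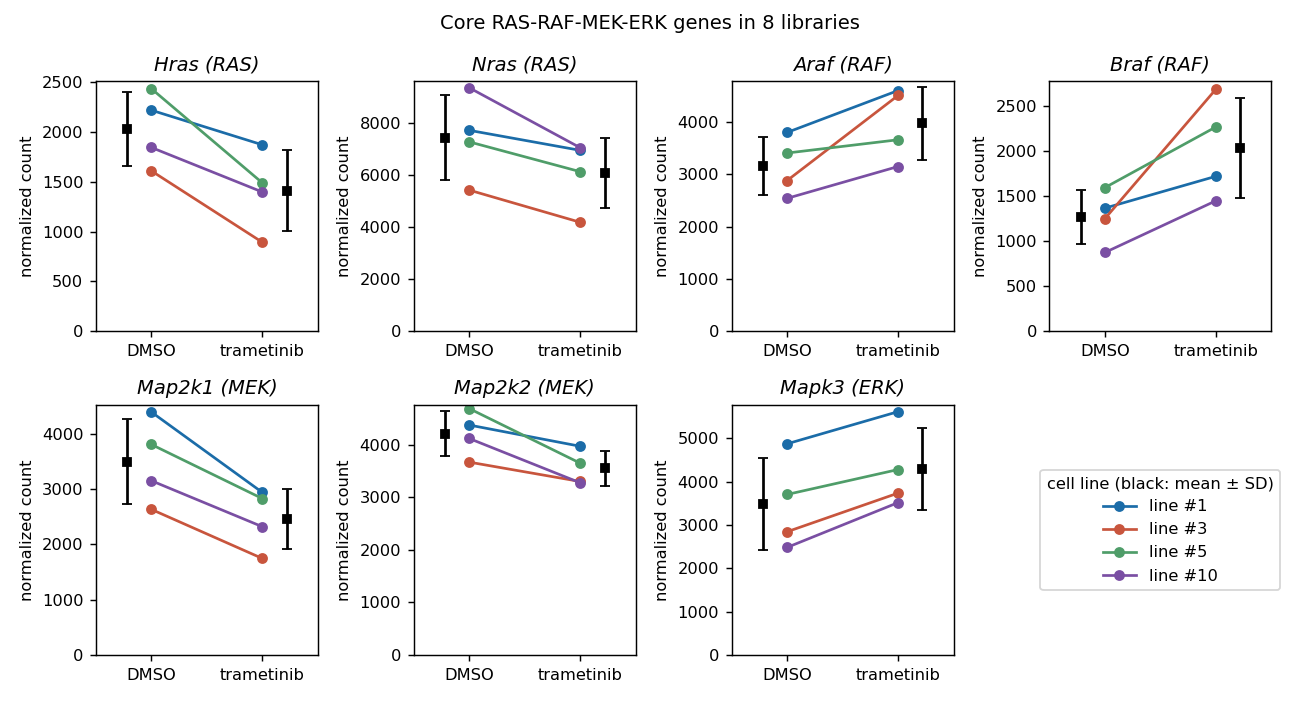
Normalized counts of the 7 genes (vertical axes, each starting at 0) in DMSO and trametinib libraries, with one coloured line per cell line and black squares for the mean ± SD of the 4 lines. Lines for Hras, Nras, Map2k1 and Map2k2 all slope down and those for Araf, Braf and Mapk3 all slope up, while the ranges of the groups overlap in every panel.

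The median absolute log2 fold change was 0.334 over the members and 0.534 over all tested genes, and the signed medians were -0.246 and 0.0718. Braf (0.67) and Hras (-0.55) lay beyond that median absolute change of all genes and the other 5 members within it. When a change of more than 1.5-fold was demanded in limma (treat), 0 of 7 members passed, also at an unadjusted p under 0.05, against 15.2% of tested genes. When the lines were not used as a block, 0 of 7 passed (3 of 7 at an unadjusted p under 0.05) against 28.7% of tested genes. The highest and lowest line under DMSO differed by a factor of 1.28 (Map2k2) to 1.96 (Mapk3).

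Hras (chr7:141189105-141194005, minus strand, mm10) encodes a RAS GTPase that couples receptor tyrosine kinases to RAF. Its normalized count under DMSO was 2221 in line #1, 1611 in line #3, 2437 in line #5 and 1847 in line #10, and under trametinib 1874, 894, 1491 and 1399 in the same order. Every line was lower under the drug, with the greatest loss on the log2 scale in #3, and the 2 groups overlapped because #1 under trametinib stayed above #3 and #10 under DMSO. Hras changed by -0.55 on the log2 scale (SE 0.12, 95% interval -0.84 to -0.26, limma adjusted p = 0.00886). 

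Nras (chr3:103058285-103067914, plus strand), the second RAS gene of the set, had the highest mean normalized count of the 7 in both groups. They were 7726, 5426, 7282 and 9363 under DMSO in lines #1, #3, #5 and #10, and 6956, 4189.5, 6136 and 7057 under trametinib. Line #10 started highest and lost most on the log2 scale, and line #3 was lowest in both groups. Nras changed by -0.29 (log2, SE 0.08, interval -0.50 to -0.09, limma adjusted p = 0.0238). This call was lost without line #5 (adjusted p = 0.0717) and without line #10 (0.118). It was also lost with libraries rescaled to equal totals, where the log2 change was -0.17 (adjusted p = 0.131), and with quantile normalization (-0.15, 0.171).

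In the RAF tier the direction was the opposite. Braf (chr6:39603237-39725463, minus strand) encodes the RAF kinase with the highest basal activity. Its counts were 1363.5, 1247.5, 1591 and 872 under DMSO and 1716, 2681, 2263 and 1445 under trametinib, for lines #1, #3, #5 and #10. Line #3 more than doubled, with a log2 change of 1.10, whereas line #1 changed by 0.33. Over the lines Braf changed by 0.67 (log2, SE 0.14, interval 0.34 to 0.99, a fold of 1.59, limma adjusted p = 0.0066).

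Araf (chrX:20797814-20860519, plus strand), a RAF kinase with weaker intrinsic activity, was at 3797.5, 2878, 3404 and 2538 under DMSO and at 4598, 4504, 3657 and 3146 under trametinib. It was higher in each line, by 0.65 on the log2 scale in #3 and by 0.10 in #5. The change was 0.33 (log2, SE 0.11, interval 0.08 to 0.59, a fold of 1.26, limma adjusted p = 0.0351). It was no longer called without line #1 (adjusted p = 0.0878) or without line #10 (0.1), nor with libraries centred on their median (log2 change 0.27, 0.11). Araf shares 9 exon bases with Syn1 on the opposite strand and Braf shares 146 with Ndufb2, 0.138% and 1.05% of their exon bases, with a stranded library kit.

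The MEK tier holds the targets of the drug. Map2k1 (chr9:64185770-64253631, minus strand; MEK1) was at 4398, 2635, 3811 and 3154.5 under DMSO and at 2942, 1746.5, 2831 and 2322 under trametinib, in lines #1, #3, #5 and #10. The 4 lines fell by 0.58, 0.59, 0.43 and 0.44 on the log2 scale. Map2k1 had the lowest p of the 7, with a change of -0.51 (SE 0.08, interval -0.70 to -0.32, a fold of 0.70, limma adjusted p = 0.00236).

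Map2k2 (chr10:81105915-81133975, plus strand; MEK2) was at 4374.5, 3669, 4688 and 4118.5 under DMSO and at 3970.5, 3300.1, 3649 and 3275 under trametinib. The decrease was shallow in each line, from 0.14 to 0.36 in log2 units, with the DMSO value of #3 within the MEKi range. It amounted to -0.25 (SE 0.08, interval -0.45 to -0.05, limma adjusted p = 0.0439). It was lost on leaving out line #1 (adjusted p = 0.0819), #5 (0.168) or #10 (0.174). With libraries rescaled to equal totals the log2 change was -0.12 (adjusted p = 0.255) and with quantile normalization -0.12 (0.294), so that the call was lost under both.

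Mapk3 (chr7:126759601-126765819, plus strand) encodes ERK1, the kinase activated by MEK. It was at 4872, 2842, 3703 and 2481 under DMSO and at 5613, 3734, 4278 and 3515 under trametinib, in lines #1, #3, #5 and #10. Line #1 was highest and line #10 lowest in both groups, and line #10 gained most. Mapk3 changed by 0.33 (SE 0.09, interval 0.12 to 0.54, a fold of 1.25, limma adjusted p = 0.0197), and without line #10 the adjusted p was 0.104. With libraries centred on their median the log2 change was 0.27 (adjusted p = 0.0648).

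**Figure D2:**
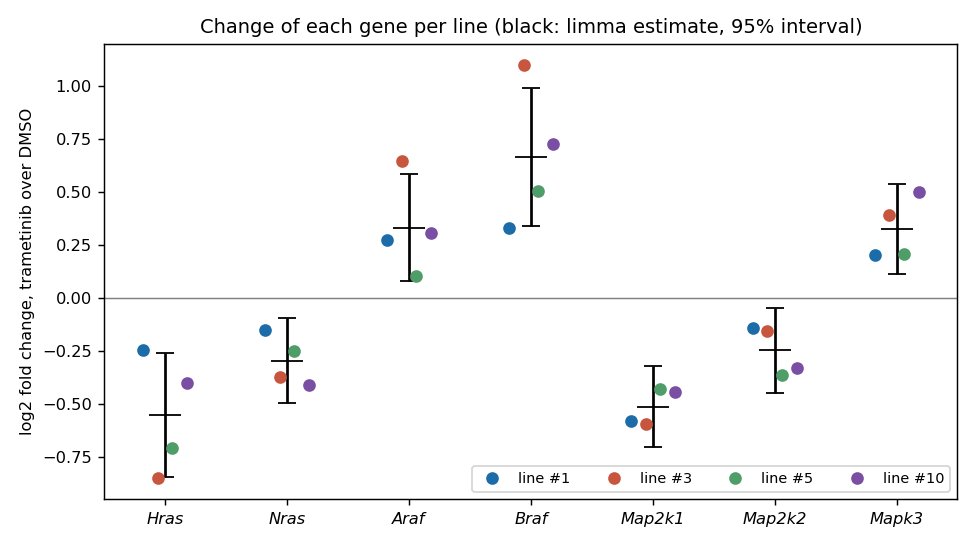
Log2 fold change of trametinib over DMSO (vertical axis) for the 7 genes, with coloured points for each cell line and black bars for the limma estimate and its 95% interval. All points of Hras, Nras, Map2k1 and Map2k2 lie below 0 and all points of Araf, Braf and Mapk3 above it, with the widest spread for Braf, from 0.33 to 1.10.

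The lines did not contribute evenly. Line #3 showed the largest change for 4 members (Hras, Araf, Braf and Map2k1), line #10 for 2 (Nras and Mapk3), line #5 for 1 (Map2k2) and line #1 for 0. The same line #3 held the largest change for 48.2% of all tested genes, and its median absolute log2 fold change was 0.718 over tested genes, compared with 0.505 to 0.546 in the other lines. Over the members the corresponding medians were 0.593 in #3, 0.408 in #10, 0.361 in #5 and 0.246 in #1.

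Partners within a tier were then compared inside each library, which removes library scaling. The Araf to Braf ratio decreased in 4 of 4 lines, from 2.79 to 2.68, 2.31 to 1.68, 2.14 to 1.62 and 2.91 to 2.18 in lines #1, #3, #5 and #10. Araf thus rose less than Braf in each of them, with a mean log2 change of the ratio of -0.33 ± 0.19 (SD, n = 4). The Map2k1 to Map2k2 ratio also decreased in 4 of 4 lines, from 1.01 to 0.741 in #1, 0.718 to 0.529 in #3, 0.813 to 0.776 in #5 and 0.766 to 0.709 in #10, by -0.26 ± 0.20 (SD, n = 4). The Hras to Nras ratio was lower in 3 of 4 lines and nearly level in #10 (0.197 to 0.198), with a mean log2 change of -0.26 ± 0.25 (SD, n = 4). In two-sided exact permutation tests over the 4 lines, p was 0.125 for Araf/Braf and Map2k1/Map2k2 (adjusted 0.188 over the 3 ratios) and 0.25 for Hras/Nras. With 4 lines the smallest p this test allows is 0.125, so that no ratio could pass at 0.05.

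**Figure D3:**
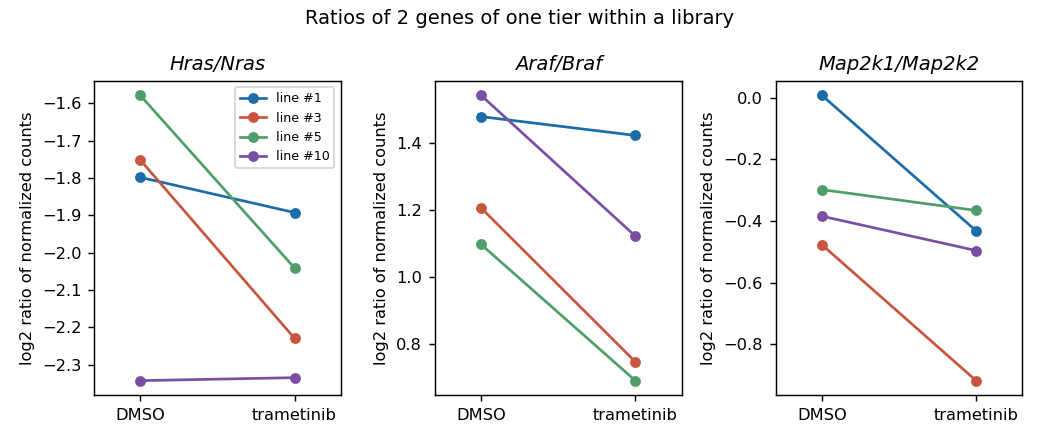
Log2 ratio of the normalized counts of 2 genes of one tier within a library (vertical axes, different scales per panel), under DMSO and trametinib, with one coloured line per cell line. Araf/Braf and Map2k1/Map2k2 fall in 4 of 4 lines and Hras/Nras falls in 3.

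Levels were compared between genes per kilobase of the longest annotated transcript, since longer transcripts collect more fragments. Under DMSO the order by normalized count per kilobase was Mapk3 (1930.2 ± 591, SD, n = 4), Map2k2 (1752 ± 179), Nras (1667 ± 362), Map2k1 (1437 ± 315), Araf (1105 ± 195), Hras (718 ± 131) and Braf (130.4 ± 30.9). The ranges of neighbours overlapped from Mapk3 down to Araf, and they did not overlap between Araf and Hras or between Hras and Braf. Braf was thus the scarcest transcript of the 7 by this measure.

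Under trametinib Mapk3 led with 2381 ± 523 per kilobase, no longer overlapping Map2k2 (1476 ± 137). The means of Araf (1393 ± 244), Nras (1361 ± 297) and Map2k1 (1010.0 ± 225) followed, with overlapping ranges among neighbours in this stretch. Araf was above Nras in 2 of 4 lines, #1 and #3, with the widest gap in #3 (1578 against 937). Hras (500.1 ± 143) and Braf (208 ± 56.9) stayed last, each without overlap with its neighbour above. The positions of Araf and Map2k2 rest on the transcript length chosen. With the union of all exons the DMSO level of Araf was 482, under the 544 of Hras, and that of Map2k2 was 744, under Nras (1397) and Map2k1 (1032). With the same length Map2k2 (627) and Araf (608) were under Nras (1141) and Map2k1 (726) with trametinib.

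The patterns of single members over the 8 libraries were most like those of the following genes, as Pearson correlations of log2 values that share the libraries and the drug. For Hras these were Atp5d (r = 0.992), Eef2 (0.992) and Eif3k (0.991), and for Nras Atp5j (0.983), AI837181 (0.979) and Oser1 (0.976). For Araf they were Lmbr1l (0.992), Cpxm1 (0.973) and Btn2a2 (0.97), and for Braf Parp16 (0.979), Zfp609 (0.977) and Rgp1 (0.975). Sarnp (0.993), Rbmx2 (0.992) and Ap4s1 (0.99) came closest to Map2k1, and Tmem56 (0.977), Rala (0.972) and Phc2 (0.971) to Map2k2. Mapk3 was most like Ablim1 (0.985), Faxc (0.98) and Chmp7 (0.977). The number of tested genes with r above 0.9 ranged from 95 for Araf to 787 for Hras, so these leading genes are drawn from a crowded field.

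Genes around the core were read from 7 lists, chosen like the members with earlier results of these data known. Of their 97 genes 95 were tested. Of these 19 were higher, 25 lower and 51 did not pass, where 27.3% of all tested genes were higher and 25.6% lower, with a median log2 change of -0.133 and a median absolute change of 0.318, near the 0.334 of the members. Among RAS relatives 3 of 7 were higher, 1 lower and 3 did not pass. Mras, a RAS-like GTPase that works with SHOC2 in RAF activation, rose from 379 to 654 under DMSO to 913 to 2253 under trametinib (log2 change 1.39, adjusted p = 0.00107). Rras, a GTPase linked to integrin adhesion, rose by 1.31 (adjusted p = 0.000404), and Rap1a fell by 0.51 (adjusted p = 0.00347). These shifts of Mras and Rras exceeded those of all 7 members.

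Proteins that load RAS with GTP or link it to receptors had 3 of 12 genes higher, 1 lower and 8 not passing, against 27.3% higher and 25.6% lower over all tested genes. Gab1, a docking adaptor for SHP2 and PI3K, rose by 1.99 on the log2 scale (adjusted p = 0.000319), from 132 to 354 normalized counts under DMSO to 736 to 1247 under trametinib. Rasgrp3, a RAS exchange factor, rose by 1.19 (adjusted p = 0.0157), and Crkl, an SH2/SH3 adaptor, fell by 0.48 (adjusted p = 0.00373). The RAS GTPase-activating proteins and the RAS-degrading adaptor Lztr1 were split, with 2 of 9 higher, 3 lower and 4 not passing. Lztr1 rose by 0.49 (adjusted p = 0.00952) and the GTPase-activating protein gene Dab2ip by 0.32 (0.0229), whereas Rasa3 fell by 0.83 (0.00363) and Rasa4 by 0.68 (0.0193). The Dab2ip call was lost without line #1, #5 or #10 (adjusted p = 0.0773 to 0.117), and the calls of Lztr1 (0.0501) and Rasa4 (0.0855) were lost without line #10. The size of the Rasa4 fall depended on scaling, with a log2 change of -1.09 under quantile normalization (limma adjusted p = 0.0035).

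Among enzymes that attach lipids to RAS or move it to membranes, 2 of 12 were higher, 3 lower and 7 did not pass. The shares over all tested genes were 27.3% higher and 25.6% lower. Fntb, the beta subunit of farnesyltransferase, fell by 0.55 (adjusted p = 0.00558), and the depalmitoylase gene Abhd17c fell by 0.93 (0.00635). Zdhhc9, a RAS palmitoyltransferase subunit, rose by 0.61 (adjusted p = 0.00498), and Pggt1b, a subunit of a related prenyl transferase, rose by 0.28 (0.0421). The Pggt1b call was lost on leaving out any 1 of the 4 lines (adjusted p = 0.0541 to 0.12), with median centring (0.107) and with quantile normalization (0.0671).

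Of the regulators and scaffolds of RAF and MEK, the longest list, 11 of 27 were lower, 4 higher and 12 did not pass. Of all tested genes 25.6% were lower and 27.3% higher. Phb2 and Phb, the prohibitins, fell by 1.00 (adjusted p = 0.00118) and 0.96 (0.00248). Chosen after their values were seen, the 14-3-3 genes Ywhae and Ywhaz fell by 0.79 (adjusted p = 0.00228) and 0.70 (0.00131), as the strongest of 4 lower among 6 listed 14-3-3 genes. Ywhah (-0.22, adjusted p = 0.106) and Ywhaq (-0.30, 0.0596) did not pass. Also chosen afterwards, the chaperone gene Hsp90ab1 and its kinase co-chaperone Cdc37 fell by 0.94 (0.00196) and 0.44 (0.00444). Pea15a, which holds ERK in the cytoplasm, rose by 0.74 (adjusted p = 0.000849), and Arrb1, an arrestin scaffold, rose by 0.67 (0.0218) with 3 of 4 lines higher. The Arrb1 call was lost without line #1, #5 or #10 (adjusted p = 0.0625 to 0.0879).

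In the parallel MAPK modules 3 of 20 were higher, 3 lower and 14 did not pass. Among all tested genes 27.3% were higher and 25.6% lower. Mapk4 and Mapk15, atypical MAP kinases at low counts, rose by 1.91 (adjusted p = 0.00141) and 1.60 (0.00404), while Map2k3, a p38 activator, fell by 0.90 (0.00052) and Map3k2 by 0.58 (0.00183). Of the kinases that ERK or p38 activates, 2 of 8 were higher, 3 lower and 3 did not pass, against the same shares. Mknk1 and Mknk2, which phosphorylate eIF4E, rose by 0.60 (adjusted p = 0.00364) and 0.30 (0.0228), the Mknk2 call being lost without line #1 (0.0972), #5 (0.0512) or #10 (0.114). Rps6ka4, encoding MSK2, fell by 1.51 (adjusted p = 0.000201), and Rps6ka6 fell by 1.75 (0.0102) at low and uneven counts, 4.80 to 411 under DMSO and 2.32 to 72.2 under trametinib, with the call lost without line #3 (0.0508).

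**Figure D4:**
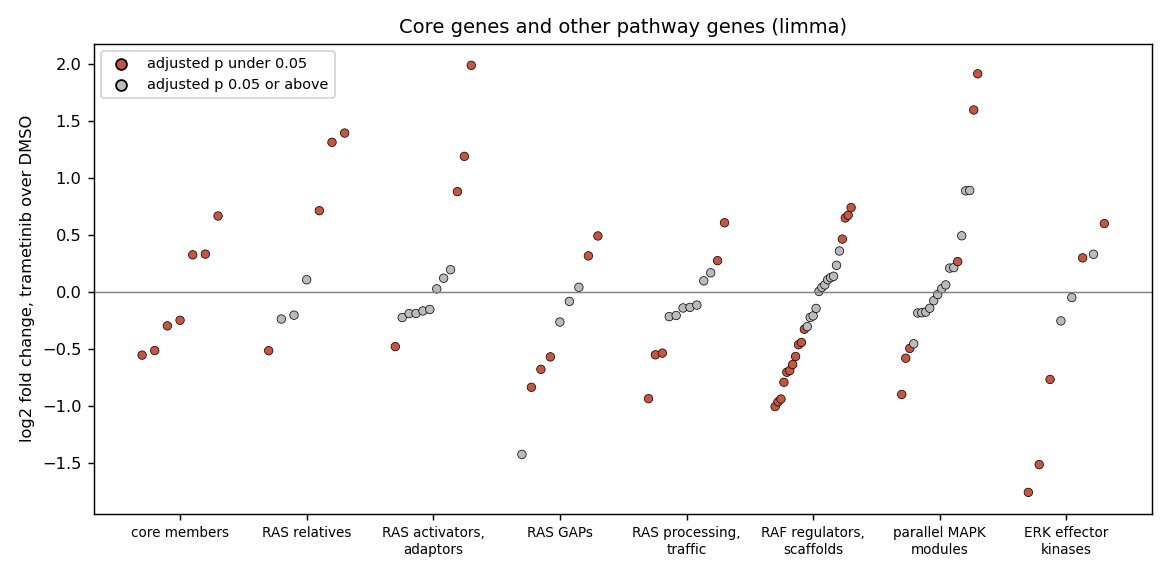
Log2 fold change of trametinib over DMSO (vertical axis) for the 7 core members and for each gene tested in the 7 surrounding lists, ordered by size within a list, with red points for an adjusted p under 0.05 and grey for the rest. The members lie between -0.55 and 0.67, inside the span from Rps6ka6 (-1.75) to Gab1 (1.99).

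As a check of the drug, the feedback phosphatase gene Dusp6 fell from 4992 to 9662 normalized counts under DMSO to 638 to 2231 under trametinib (log2 change -2.51, limma adjusted p = 0.000123). Of the listed ERK output genes 8 of 8 were lower. Over all tested genes 25.6% were lower and 27.3% higher, and these shares apply to the marker counts below as well. Totals were 33385299 to 36385719 normalized counts under DMSO and 30680091 to 33063309 under trametinib, lower in 4 of 4 lines, from an estimated 29400000 to 46000000 reads, and the lowest member value (Braf, 872, in DMSO line #10) stood for about 912 reads with a counting error of 3.31%. The mitochondrial share of counts was higher under trametinib in 4 of 4 lines (3.97% to 6.11% under DMSO, 4.22% to 8.45% under trametinib), and its part in the members' changes was not tested. Ductal epithelial markers dominated, with a summed level of 231000 to 353400 under DMSO and 119400 to 231500 under trametinib and 6 of 7 tested genes lower, although Epcam was near 0 (0 to 10.4). Summed markers of other cell types were far lower. Fibroblast markers summed to 84.4 to 354 under DMSO and 417 to 1245 under trametinib (1 of 4 tested higher, Col1a1, and Lum at 0), leukocyte markers to 155 to 242 and 239.6 to 516 (1 of 4 higher, Csf1r), and endothelial markers to 30.9 to 55.4 and 62.7 to 831 (1 of 3 higher, Tek). In limma the log2 changes of these single genes were 3.60 for Col1a1 (adjusted p = 0.000872), 2.83 for Csf1r (0.000697) and 3.77 for Tek (0.0015), and under trametinib they reached 1110.0, 340.0 and 805 normalized counts. Acinar markers summed to 46.5 to 254 and 21.4 to 126 (the 1 tested gene lower, Cpa1 at 0). The part of these markers in the members' changes was not tested, and in bulk samples fewer cells of a type and less RNA per cell cannot be told apart.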

How the data were processed

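Libraries were made with a stranded mRNA kit and sequenced as paired reads. The submitters' processing notes name CASAVA 2.17, Salmon 0.12, DESeq2 1.18 and the mm10 build without giving their roles. The values are a signal, normalized counts per gene as deposited by the authors, scaled between libraries by a method the notes do not spell out. Reads behind them could not be recovered, since only 53.9% to 68.1% of low values lay within 0.05 steps of a whole multiple, and read numbers are therefore estimates.

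Values were transformed as log2(value + 1), so that fold changes of low genes are understated. Genes with a mean of at least 10 were tested (15888 of 34478) with limma 3.58.1 in R 4.3.3 (eBayes with trend, cell line as block), with Benjamini-Hochberg adjustment over all tested genes and a threshold of 0.05. The block was kept because libraries of one number come from the same cell line; their deviations from the group means correlated with r = 0.644, 0.647, 0.631 and 0.724 in lines #1, #3, #5 and #10. Ratios were tested by exact two-sided sign permutation. The fit was also run on simulated data with changes equal in every line. That run does not cover changes that differ between lines, as they do here. Annotation was GENCODE M21, and promoters came from RefSeq. Within each surrounding list the 2 largest rises and 2 largest falls past the threshold were named, besides genes marked as chosen afterwards, and the 3 genes of highest correlation per member. Some listed genes and an allele shared by all libraries are not reported here, and the lists were counted without those genes. Members and lists were chosen with earlier results of these data known. Python 3.11.15 was used for the other steps. Alternatives were other pseudocounts, scalings and filters, no block, other variance settings, a minimum change and leaving out each line.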

Additional observations from a re-analysis of the deposited data

Results flagged for a closer look

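In the comparison of Araf with Braf, line #1 stood apart from the other lines. Its log2 ratio changed by -0.0557 under trametinib, whereas lines #3, #5 and #10 changed by -0.457 to -0.405, and the gap was 0.87 of the whole range of the 4 lines, above Dixon's 95% critical value for 4 samples. With 24 groups examined, about 1.2 such gaps occur by chance.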

How the results depend on the processing

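All 7 members kept their direction under the 15 alternatives to the main limma fit, and Hras, Braf and Map2k1 stayed called in 13 of them, Mapk3 in 10, Nras and Araf in 8 and Map2k2 in 6. Without cell line as a replicate block the adjusted p was 0.112 for Hras, 0.346 for Nras, 0.195 for Araf, 0.0698 for Braf, 0.108 for Map2k1, 0.183 for Map2k2 and 0.331 for Mapk3, which left 0 members higher and 0 lower (3 of 7 at an unadjusted p under 0.05 in limma), with 10 surrounding genes higher and 13 lower. With a minimum change of 1.5-fold it was 0.736 for Braf and 1 for the other 6, which left 0 higher and 0 lower, with 5 surrounding genes higher and 3 lower. With eBayes without trend the adjusted p was 0.0624 for Nras, 0.0818 for Araf, 0.0967 for Map2k2 and 0.055 for Mapk3, leaving 1 member higher and 2 lower. With no filter it was 0.0652 for Araf and 0.0863 for Map2k2. With equal totals Nras was at 0.131 and Map2k2 at 0.255, and with quantile normalization at 0.171 and 0.294, each leaving 2 members lower, with log2 changes of -0.17 and -0.15 for Nras and -0.12 in both for Map2k2. With libraries centred on their median Araf was at 0.11 and Mapk3 at 0.0648, leaving 1 higher. Surrounding genes counted 19 higher and 25 lower in the main fit. They counted 25 and 24 with equal totals, 20 and 24 with quantile normalization, and 17 and 35 with median centring. The parallel MAPK modules, at 3 and 3 in the main fit, had 7 and 3 with equal totals and 2 and 6 with median centring. Genes that load RAS or link it to receptors had 1 lower in the main fit and 4 with median centring. These scalings moved the median log2 change of all genes by 0.128, -0.103 and -0.059, and relative to that median the members kept their direction. Over all genes 4341 were higher and 4075 lower in the main fit, 5333 and 3285 with equal totals, 2205 and 2347 without the block, and 1456 and 961 with the minimum change. Apart from these constructions the cause of lost calls was not tested.

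Leaving out each line in turn gave adjusted p of 0.0133 to 0.0435 for Hras, 0.0259 to 0.118 for Nras, 0.0413 to 0.1 for Araf, 0.00606 to 0.03 for Braf, 0.00226 to 0.0164 for Map2k1, 0.0236 to 0.174 for Map2k2 and 0.0259 to 0.104 for Mapk3. The members called were then 1 to 3 higher and 2 to 4 lower, and the surrounding genes 13 to 20 higher and 23 to 25 lower. The 3 tested ratios kept their direction. With the union of exons as length, which divides the same counts by a longer length, levels per kilobase of all 7 genes were lower. They moved by more than 1 SD between lines, under DMSO and trametinib, to 482 and 608 for Araf, 91.5 and 146 for Braf, 1032 and 726 for Map2k1, and 744 and 627 for Map2k2, and to 544 for Hras under DMSO, while Hras under trametinib (379), Nras and Mapk3 moved by less. For the surrounding genes named by rule, together with Dusp6 and without the genes chosen afterwards, 352 values under alternatives kept direction and call, 53 lost the call and 0 changed sign. The highest counting error of a member value was an estimated 3.31%.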
